A study of Mus musculus with 6 samples.

Results

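The respiratory chain subunits examined here were the protein-coding genes of the 5 complexes of oxidative phosphorylation, picked by gene symbol alone. Symbols beginning with Nduf, then a, b, c, s or v and then a number, gave nuclear members. So did the 4 Sdh genes and the Uqcr, Cox4 to Cox8 and Atp5 families. The mt-Nd, mt-Co, mt-Cytb and mt-Atp genes gave the mitochondrial ones. Assembly factors (Ndufaf) and 12 pseudogene or noncoding symbols were dropped. This left 98 genes of the 55487 in the table, 85 of them spread over 19 nuclear chromosomes and 13 on mitochondrial DNA. Complex I contributed 37 nuclear and 7 mitochondrial genes, complex II 4 nuclear genes, complex III 8 and 1, complex IV 18 and 3, and complex V (ATP synthase) 18 and 2.

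All 6 cultures were labelled as skin endothelial cells (ECs) of genotype C57BL/6, and no transgene or deletion was named for them. Per the study's methods, the ECs came from the pooled skin of 4 to 6 mice aged 2 to 3 months, were enriched with beads against CD31 and were used at passages 1 to 6. In 3 cultures the medium held normal glucose (5 mmol/L) and in 3 it held high glucose (20 mmol/L), in both cases for 48 hours, and polyadenylated RNA was sequenced. The study's caption for these RNA-sequencing data counts its 3 replicates per group in mice, while its methods pool several mice in an isolation, and how each library maps to mice or isolations is not given in the sources used here. P values measure the spread between these samples.

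Counts totalled between 120192466 and 146881356 per library. The endothelial label was not borne out by its defining markers. Of 15 endothelial markers, Sox17 was at 0 in all libraries and Tie1, Emcn, Cldn5 and Robo4 were too low to test. Pecam1, which encodes CD31, lay between 0.0635 and 0.152 CPM (gene counts brought to a common library total with TMM factors). The summed level of the 15 endothelial markers was 216 to 243 CPM in normal glucose and 194 to 200 CPM in high glucose, most of it from Eng and Flt1, and 2 markers rose and 3 fell. The summed level of 15 fibroblast markers was 40010 to 43300 CPM against 72380 to 77240 CPM, with 11 higher and 3 lower. Of all tested genes 16.9% were higher and 14.5% lower. The cultures are therefore called by their glucose group below. In bulk RNA, fewer cells of a type and less RNA per cell cannot be told apart.

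Electrons from NADH enter the respiratory chain at complex I and those from succinate at complex II. They pass through ubiquinone to complex III, through cytochrome c to complex IV (cytochrome c oxidase) and on to oxygen. Complexes I, III and IV pump protons, and ATP synthase lets them flow back to make ATP. Mitochondrial DNA encodes only core membrane subunits, while the nuclear genome encodes the rest, including alternative isoforms of several complex IV subunits that are used in particular tissues. ECs are known to rely mainly on glycolysis for ATP.

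A pair of mitochondrial coding sequences is shown because they bear on how the counts can be read. The reading frames of mt-Atp8 and mt-Atp6 share 43 bases, and those of mt-Nd4l and mt-Nd4 share 7, so a read over these stretches cannot be given to 1 gene. The shared bases are in capitals, and positions are on GRCm38 (transcript sequences of GENCODE).
mt-Atp8, chrM:7766-7969, plus strand: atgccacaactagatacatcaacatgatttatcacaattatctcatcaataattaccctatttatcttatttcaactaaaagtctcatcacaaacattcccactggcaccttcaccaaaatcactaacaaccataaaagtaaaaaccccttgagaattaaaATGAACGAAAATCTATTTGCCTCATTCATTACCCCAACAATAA
mt-Nd4l, chrM:9877-10173, plus strand: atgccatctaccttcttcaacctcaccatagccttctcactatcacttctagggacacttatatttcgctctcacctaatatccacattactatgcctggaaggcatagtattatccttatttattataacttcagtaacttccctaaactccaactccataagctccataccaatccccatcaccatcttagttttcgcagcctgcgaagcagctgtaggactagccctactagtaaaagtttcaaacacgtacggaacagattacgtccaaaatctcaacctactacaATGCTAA

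The promoters of 4 genes are given. They belong to the most lowered complex IV genes for which a sequence could be matched, Cox7a1, Cox6b2 and Cox7a2l, and to Sdhd, a complex II gene that did not pass the test. Each is the RefSeq sequence (GRCm38.p6) from 250 bases before to 50 after the annotated start, read 5′ to 3′ on the strand of the gene. Promoters of respiratory genes are known for sites of NRF1, of ETS family factors such as GABP, and of YY1. The NRF1 letters (GCGCA and GCGC with 1 base of any kind, N, between them), the ETS letters CCGGAAG and the YY1 letters AAGATGGC were searched on both strands, and matches are in capitals. In Sdhd the first capitals are an NRF1 match and the second an ETS match on the opposite strand, and the 3 complex IV promoters hold none.
Sdhd promoter, chr9:50603800-50604099, minus strand: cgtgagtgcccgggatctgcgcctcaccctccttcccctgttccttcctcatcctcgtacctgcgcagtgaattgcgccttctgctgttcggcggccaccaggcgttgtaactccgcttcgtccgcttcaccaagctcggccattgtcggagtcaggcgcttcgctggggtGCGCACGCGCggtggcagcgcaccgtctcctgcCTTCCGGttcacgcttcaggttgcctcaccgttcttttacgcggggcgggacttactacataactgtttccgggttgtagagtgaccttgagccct
Cox7a1 promoter, chr7:30183921-30184220, plus strand: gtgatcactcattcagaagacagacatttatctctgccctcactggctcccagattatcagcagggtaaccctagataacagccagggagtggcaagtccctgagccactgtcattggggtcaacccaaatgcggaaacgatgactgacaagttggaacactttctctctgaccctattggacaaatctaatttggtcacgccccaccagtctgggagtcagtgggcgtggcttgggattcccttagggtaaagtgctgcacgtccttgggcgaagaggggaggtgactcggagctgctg
Cox6b2 promoter, chr7:4753045-4753344, minus strand: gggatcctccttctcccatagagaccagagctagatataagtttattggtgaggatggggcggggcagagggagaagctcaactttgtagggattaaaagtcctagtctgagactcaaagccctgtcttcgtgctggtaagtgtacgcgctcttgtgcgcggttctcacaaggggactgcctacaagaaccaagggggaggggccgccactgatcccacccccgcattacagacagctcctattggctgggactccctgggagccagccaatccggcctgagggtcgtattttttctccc
Cox7a2l promoter, chr17:83514284-83514583, minus strand: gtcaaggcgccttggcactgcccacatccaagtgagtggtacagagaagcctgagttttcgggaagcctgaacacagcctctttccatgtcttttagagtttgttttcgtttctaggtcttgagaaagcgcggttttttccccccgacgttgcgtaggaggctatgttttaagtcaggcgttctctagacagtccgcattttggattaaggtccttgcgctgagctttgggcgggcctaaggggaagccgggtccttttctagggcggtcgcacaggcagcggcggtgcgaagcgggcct

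RefSeq promoters were matched for 66 of the 84 nuclear gene symbols, with 71 windows in all. The NRF1 letters stood in 25.4% of these windows and in 4.60% of all 32851 promoter windows. The ETS letters stood in 22.5% against 8.86%, and the YY1 letters in 12.7% against 2.75%. None of the 3 motifs was found in 30 of the 66 genes. Among these were the complex IV genes shown above and Ndufa1, Atp5b, Cox5a, Cox7a2 and Cox7b, all called lower in the main test. Genes that did not pass the test, such as Cox5b and Cox7c, were also among them. Other genes that did not pass, such as Cox6a1 and Ndufb4, held matches. Whether motifs go with the changes in level was not tested. A match describes the letters in the window and says nothing of whether a factor binds there.

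Most respiratory chain transcripts did not pass the test in high glucose, and the largest falls were those of 3 nuclear-encoded complex IV isoform genes, Cox4i2, Cox7a1 and Cox6b2, with Cox7a2l next. Of the 93 members that could be tested, 16 fell at an adjusted P value under 0.05 and none rose in edgeR's quasi-likelihood test, and 90 had a log2 fold change below 0. Among all 19015 tested genes 31.4% were called, with 16.9% higher and 14.5% lower, so the 17.2% of members called lower was near the background. The count of 0 rises was also 0 at an unadjusted P value under 0.05 and with DESeq2. The median log2 fold change of the 93 members was -0.12, against 0.01 over all tested genes and 0.04 over the 5831 abundant genes, those averaging 5 or more in log2 CPM. That class held 79 of the tested members, and 40.1% of it was called, 25.3% higher and 14.8% lower. The 3 normal and 3 high glucose values did not overlap in 29 members, each of them lower in high glucose. This was so for 46.4% of all tested genes, and for 21.3% with high glucose lower.

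**Figure D1:**
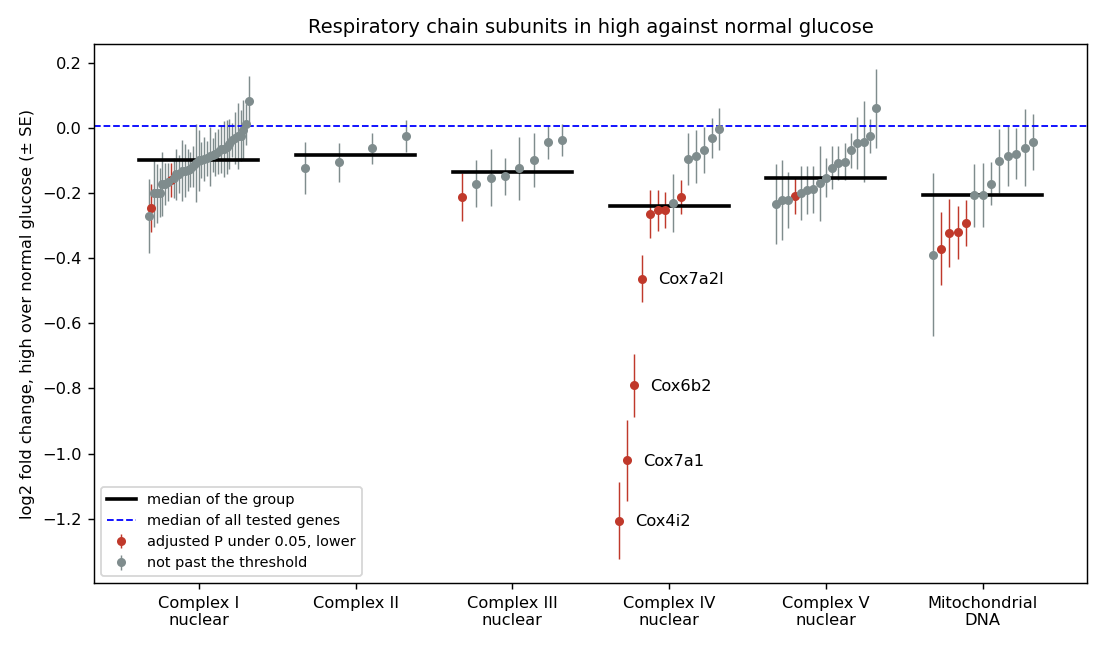
Log2 fold change of each tested subunit gene, high over normal glucose, by complex and genome, with its standard error from edgeR. Red points passed an adjusted P value of 0.05, black bars are group medians and the dashed line is the median of all tested genes; Cox4i2, Cox7a1, Cox6b2 and Cox7a2l stand below all other members.

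The shift was not even over the libraries. The median deviation of the 80 tested nuclear members from their normal glucose mean was 0.13, -0.13 and 0.00 (log2) in normal glucose replicates 1, 2 and 3, and -0.14, -0.11 and -0.12 in the 3 high glucose replicates. Normal glucose replicate 2 thus lay at the level of the high glucose libraries, with 3 of 80 nuclear members above their normal glucose mean, against 72 in replicate 1 and 35 in replicate 3. Without normal glucose replicate 2 the test called 43 nuclear members lower, and without high glucose replicate 1 it called 7, in place of 12. Over all tested genes these fits called 3065 of 19258 and 2097 of 19367 lower, in place of 2757 of 19015.

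Transcript length moved with this shift. Of other abundant protein-coding genes, the 150 with transcripts of up to 1000 bases had a median of -0.16 (log2), and the 420 with transcripts over 8000 bases had one of 0.24. These bins were chosen after the data were seen. The 150 short genes deviated by 0.13, -0.14 and 0.02 under normal and by -0.18, -0.17 and -0.15 under high glucose, in the same order of libraries within normal glucose as the nuclear members. With each library's trend on length and GC content removed, the difference of the nuclear members between groups was 0.00 (log2) in place of -0.12. Then 41 of 80 nuclear members were below 0, and 7 were called lower and 7 higher. Over all 93 members the median was then 0.00 (log2), with 9 called higher and 7 lower. Among all 19015 tested genes that fit called 3816 higher and 3065 lower. Group medians near -0.1 are therefore given below with their trend-removed values.

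**Figure D2:**
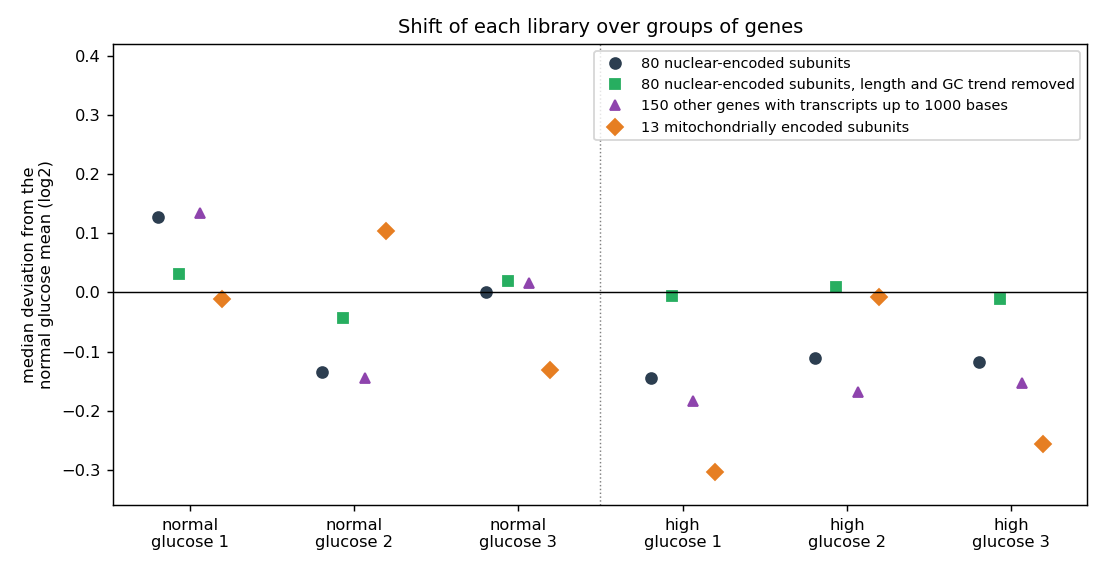
Median deviation (log2) of each library from the normal glucose mean, over the 80 tested nuclear subunits before and after removal of the length and GC trend, over 150 other short genes and over the 13 mitochondrially encoded subunits. Nuclear subunits and other short genes move together from library to library, normal glucose replicate 2 lies with the high glucose libraries, and after removal of the trend the nuclear subunits lie near 0 in all 6.

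Complex I, the NADH dehydrogenase, had little change in its nuclear genes. All 37 were tested and 2 fell, that is 5.41% against 14.5% lower over all genes. The median log2 fold change was -0.10, or 0.02 with the trend removed. Ndufa1, a small membrane accessory subunit encoded on chromosome X, had 31.1, 30.7 and 35.8 CPM against 27.8, 25.4 and 29.0 CPM. Every high glucose value was below every normal glucose value, and the log2 fold change was -0.25 ± 0.07 (SE, adjusted P = 0.0298, edgeR), but -0.04 with the trend removed. By role, the median was -0.09 (log2) over the 7 core nuclear subunits and -0.10 over the 28 accessory subunits. Ndufs8 and Ndufb4 are named after their values were seen. Ndufs8, an iron-sulfur subunit of the core, lay just outside the threshold at -0.17 (adjusted P = 0.0505). The member with the highest fold change was Ndufb4, an accessory subunit, at 0.08 (adjusted P = 0.444). With the trend removed 6 accessory genes of complex I were called higher, the largest being Ndufb4 at 0.23 (adjusted P = 0.00765). That fit called 3816 of all 19015 tested genes higher.

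Complex II, succinate dehydrogenase, is the complex with no mitochondrially encoded subunit, and none of its 4 genes passed the test. The count was also 0 at an unadjusted P value under 0.05 and with DESeq2. Sdha, the flavoprotein, had 228, 224 and 238 CPM in the normal glucose libraries against 225, 228 and 225 CPM, which is a change of -0.03 ± 0.05 (SE, log2). Sdhb, the iron-sulfur subunit, had 76.2, 60.0 and 68.7 CPM against 62.4, 65.2 and 60.6 CPM. The membrane anchor genes changed by -0.11 (Sdhc) and -0.06 (Sdhd) on that scale, neither past the test. For Sdha, Sdhb and Sdhc the groups overlapped, and for Sdhd all high glucose values were below the normal glucose ones.

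Complex III, the cytochrome bc1 complex, had a median of -0.14 over its 8 nuclear genes, or 0.02 with the trend removed. The calls were 12.5% of these genes, against 14.5% lower over all genes. Uqcrq, a small subunit beside cytochrome b, was the gene that passed, with 68.7, 57.5 and 67.7 CPM against 57.7, 52.9 and 56.8 CPM. The groups overlapped slightly, and the log2 fold change of -0.21 ± 0.07 (SE, adjusted P = 0.0494, edgeR) was at the threshold. Uqcrq did not pass with the trend removed, at -0.11 (adjusted P = 0.125), and was called in 1 of the 6 fits that left out a sample. Uqcrb, another small subunit, named after its values were seen, was called higher with the trend removed, at 0.16 (adjusted P = 0.0265), against -0.12 (adjusted P = 0.360) without that step. Uqcrh, the hinge subunit and the complex III nuclear gene with the highest level per kilobase, stood at -0.15 (log2, adjusted P = 0.212). Cyc1 encodes cytochrome c1 of the same complex but falls outside the symbol rule, and stood at 0.08 (log2, adjusted P = 0.305).

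Complex IV held 4 genes that were called lower under every alternative run. Of its 14 tested nuclear genes 8 fell, that is 57.1% against 14.5% lower over all genes, and the median log2 fold change was -0.24, or -0.05 with the trend removed. Cox4i2, Cox7a1, Cox6b2 and Cox7a2l were called in all 18 other fits, including that with the trend removed. The other 4 called genes, Cox7b, Cox4i1, Cox7a2 and Cox5a, had log2 fold changes between -0.26 and -0.21 and none of them passed with the trend removed.

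Cox4i2 (ENSMUSG00000009876, chr2:152754173-152765037, plus strand, GRCm38) encodes the subunit IV isoform known from lung and from hypoxic cells. It had 12.6, 9.40 and 10.5 CPM in the normal glucose libraries against 5.18, 4.36 and 4.53 CPM. All high glucose values were below all normal glucose values, with normal glucose replicate 1 the highest. The log2 fold change was -1.21 ± 0.12 (SE, adjusted P = 3.15e-05, edgeR), and over the alternatives it lay between -1.32 and -1.05. Among the 2757 genes called lower, 339 fell more. For Cox7a1 that number was 520, for Cox6b2 812 and for Cox7a2l 1473.

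Cox7a1 (ENSMUSG00000074218, chr7:30184144-30186078, plus strand) encodes the heart and skeletal muscle isoform of subunit VIIa. It was low, at 2.99, 2.36 and 3.02 CPM against 1.34, 1.43 and 1.36 CPM. The groups were well apart, and the log2 fold change was -1.02 ± 0.12 (SE, adjusted P = 1.51e-04, edgeR), with -0.86 after removal of the trend.

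Cox6b2 (ENSMUSG00000051811, chr7:4751792-4753094, minus strand) encodes the isoform of subunit VIb known from testis. It had 22.0, 17.3 and 17.6 CPM against 11.6, 10.2 and 11.1 CPM. All high glucose libraries were lower, and the log2 fold change was -0.79 ± 0.10 (SE, adjusted P = 1.44e-04, edgeR), or -0.63 with the trend removed.

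Cox7a2l (ENSMUSG00000024248, chr17:83501918-83517330, minus strand) is related to the VIIa subunits and is known as a factor that joins complexes III and IV into supercomplexes. C57BL/6 mice are known to carry an allele of it that encodes a shortened protein. It had 151, 126 and 131 CPM in the normal glucose libraries against 95.1, 103 and 97.5 CPM, without overlap. The log2 fold change was -0.46 ± 0.07 (SE, adjusted P = 7.96e-04, edgeR), or -0.31 with the trend removed. Per kilobase of transcript it stood at 126 ± 12.6 CPM in normal glucose (SD, n = 3), against 34.3 ± 4.7 CPM for Cox6b2, the highest of the other 3.

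Each isoform gene was then compared with its common partner by level per kilobase of transcript, that is CPM divided by transcript length. Cox4i2 made up 3.86% ± 0.41 of the Cox4i1 and Cox4i2 level in normal glucose and 2.03% ± 0.14 under high glucose (SD, n = 3 each, exact permutation P = 0.1, two-sided). Cox6b2 made up 14.2% ± 0.51 and 10.1% ± 0.72 of its pair with Cox6b1 (exact permutation P = 0.1). Cox7a1 made up 7.97% ± 0.91 and 4.85% ± 0.37 of its pair with Cox7a2 (exact permutation P = 0.1). With 3 samples against 3, 0.1 is the smallest P value this test can give, and in these pairs the groups did not overlap. The log2 ratio to the partner changed by -0.95, -0.56 and -0.76 for Cox4i2, Cox6b2 and Cox7a1. With the length and GC trend removed, Cox4i2 stood at -1.05 and Cox4i1 at -0.11 (log2), Cox6b2 at -0.63 and Cox6b1 at -0.04, and Cox7a1 at -0.86 and Cox7a2 at -0.08.

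Ndufa4l2 and Ndufa4 form another such pair. Their symbols are those of complex I, though the NDUFA4 protein is now counted with complex IV, and Ndufa4l2 is known as a hypoxia-induced gene and as a transcript of pericytes, as is Cox4i2. Ndufa4l2 had 200, 169 and 189 CPM in the normal glucose libraries against 166, 165 and 165 CPM, or -0.17 in log2 terms, outside the threshold (adjusted P = 0.0667). It was the more abundant partner, with 56.9% ± 1.4 of the pair per kilobase under normal and 56.3% ± 0.42 under high glucose (SD, n = 3 each, exact permutation P = 0.6). The restricted isoforms Cox6a2, Cox7b2, Cox8b and Cox8c were not tested. Cox8b and Cox8c were at 0 in all 6 libraries, which allows up to 0.0204 to 0.025 CPM (3 counts in each library, counting error only), Cox6a2 had at most 8 counts and Cox7b2 at most 2.

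**Figure D3:**
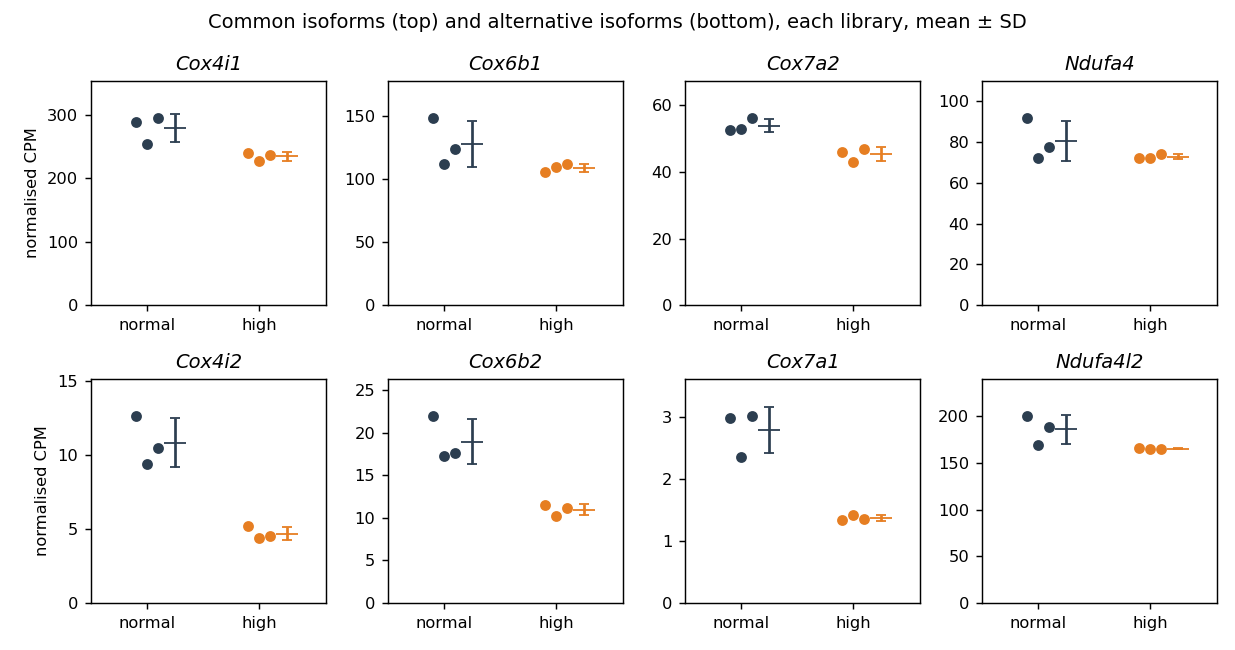
Normalised CPM of 4 common isoforms (top) and their alternative isoforms (bottom) in each library of both groups, with mean ± SD beside them and axes from 0. The high glucose values of Cox4i2, Cox6b2 and Cox7a1 lie below all normal glucose values, while those of Ndufa4l2 lie just under the lowest normal glucose value of 169.

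Markers of other cell types also differed between the groups, in both directions, where 16.9% of all tested genes were higher and 14.5% lower. Of 10 skeletal muscle markers 4 were tested and 3 fell, with a summed level of 6.18 to 7.46 CPM in normal glucose and 2.71 to 3.21 CPM in high glucose, and the muscle regulators Myod1 and Myog were at 0 in all libraries. Of 10 smooth muscle and pericyte markers 9 were tested, 5 fell and 2 rose, and their sum was 634 to 709 CPM against 534 to 560 CPM. Of 8 adipocyte markers 7 were tested and 5 rose, with a sum of 4339 to 4621 CPM against 6532 to 7028 CPM. Of 10 macrophage markers 7 were tested, 1 rose and 3 fell, and the sum went from 17.6 to 19.9 CPM up to 27.02 to 27.96 CPM, with Cd14 the marker that rose, while Ptprc, Adgre1 and Tyrobp were at or near 0. The part of these cell types in the falls of Cox4i2, Cox7a1 and Cox6b2 was not tested.

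The common complex IV subunits moved much less. Cox4i1, the most abundant nuclear gene of the complex per kilobase, had 289, 254 and 294 CPM against 239, 226 and 236 CPM. The groups were apart, and the log2 fold change was -0.25 ± 0.06 (SE, adjusted P = 0.0126, edgeR), or -0.11 with the trend removed (adjusted P = 0.0572). Its exons overlap Emc8 on the opposite strand by 154 bases. Cox7a2, the common VIIa isoform, had 52.6, 53.1 and 56.1 CPM against 46.0, 42.9 and 47.0 CPM, with a log2 fold change of -0.25 ± 0.06 (SE, adjusted P = 0.00641, edgeR), or -0.08 with the trend removed. Cox7b and Cox5a, the latter named after its values were seen, had log2 fold changes of -0.26 and -0.21. Cox6a1, Cox6b1 and Cox8a, the other common partners, did not pass, at -0.09, -0.23 and -0.03.

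ATP synthase had 1 call among 17 tested nuclear genes, that is 5.88% against 14.5% lower over all genes. Its median was -0.15 (log2), or -0.04 with the trend removed. Atp5b, the catalytic beta subunit of the F1 head and the most abundant nuclear member per kilobase, had 805, 717 and 780 CPM against 655, 680 and 657 CPM. All high glucose values were below all normal glucose values, and the log2 fold change was -0.21 ± 0.06 (SE, adjusted P = 0.0181, edgeR), or -0.16 (adjusted P = 0.00873) with the trend removed. Medians by role were -0.19 for 5 F1 head genes, -0.15 for 4 peripheral stalk genes, -0.10 for the 3 genes of the proton-carrying c subunit and -0.21 for 4 other membrane genes. A second Atp5o identifier (ENSMUSG00000116933) had at most 7 counts in a library and was not tested.

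The c subunit is encoded by 3 genes that give the same mature protein, and they are described after their values were seen. By level per kilobase Atp5g3 made up 63.8% ± 5.0 of their sum in normal glucose, Atp5g2 29.6% ± 5.3 and Atp5g1 6.57% ± 0.37, and in high glucose the shares were 60.8% ± 2.5, 32.7% ± 2.6 and 6.48% ± 0.040 (SD, n = 3 each). Atp5g2 stood at 0.06 (log2, adjusted P = 0.747). These differences between groups were within the spread of the normal glucose libraries.

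All 13 mitochondrially encoded genes had a log2 fold change below 0, and 4 of them fell, with a median of -0.21. The 4 were mt-Co2, mt-Nd3, mt-Nd1 and mt-Nd2, that is 30.8% against 14.5% over all genes. With the length and GC trend removed none of them passed, the median was 0.00, and mt-Atp6 and mt-Atp8 were called higher at 0.20 and 0.17. How well a trend fitted over all genes describes these intronless genes was not tested.

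The libraries did not divide cleanly. The median deviation of the 13 genes was -0.01, 0.10 and -0.13 (log2) under normal and -0.30, -0.01 and -0.26 under high glucose, so high glucose replicate 2 was at the normal glucose level and normal glucose replicate 3 was low. Without high glucose replicate 1 only 1 gene was called, and without high glucose replicate 3, 2 were. Over all tested genes these fits called 2097 of 19367 and 2048 of 19396 lower. The share of library counts from these genes was 0.817% ± 0.073 under normal and 0.670% ± 0.070 under high glucose (SD, n = 3 each, exact permutation P = 0.2, two-sided), a difference that did not pass. The nuclear members held 0.719% ± 0.053 and 0.605% ± 0.0027 (exact permutation P = 0.1). Both shares are of raw counts, without TMM factors. With library size alone as the scaling, the median log2 fold change of all tested genes was itself -0.11. Of the counts of all subunits together, the mitochondrial genes held 53.2% ± 3.5 and 52.5% ± 2.6 (exact permutation P = 0.7), less than the spread between replicates.

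mt-Nd1 (chrM:2751-3707), a core membrane subunit of complex I with no near-identical nuclear copy listed, had 705, 719 and 622 CPM against 505, 610 and 523 CPM. The groups did not overlap, but high glucose replicate 2 lay close to normal glucose replicate 3. The log2 fold change was -0.32 ± 0.08 (SE, adjusted P = 0.0131, edgeR), or -0.06 with the trend removed. mt-Nd2, an antiporter-like subunit of the same complex, had 387, 419 and 366 CPM against 292, 343 and 323 CPM, and fell too (log2 -0.29, adjusted P = 0.0111).

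mt-Nd3 was called at -0.32 (log2, adjusted P = 0.0374, edgeR), though its groups overlapped, with 52.0, 48.9 and 38.4 CPM against 34.2, 39.8 and 37.4 CPM. It stood at -0.03 with the trend removed and was called in 2 of the 6 fits that left out a sample. mt-Nd4, mt-Nd4l and mt-Nd5, the other plus-strand complex I genes, had log2 fold changes of -0.21, -0.06 and -0.21 and did not pass. mt-Nd6, the protein gene on the opposite strand of the mitochondrial genome, had 275, 157 and 150 CPM against 120, 205 and 120 CPM. Its groups overlapped, normal glucose replicate 1 was far above the rest, and the log2 fold change of -0.39 ± 0.25 (SE) did not pass (adjusted P = 0.267).

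mt-Co2, a catalytic subunit of complex IV that takes electrons from cytochrome c, had 690, 550 and 516 CPM against 403, 510 and 444 CPM. The groups were apart by a narrow margin, and the log2 fold change was -0.37 ± 0.11 (SE, adjusted P = 0.0290, edgeR). mt-Co1, the subunit with the oxygen-reducing site, had 2312, 2816 and 2343 CPM against 2111, 2665 and 2187 CPM and did not pass at -0.10. mt-Co3 was at -0.17 (adjusted P = 0.0735), and mt-Cytb, the electron-carrying core of complex III, at -0.04 (adjusted P = 0.743). The ATP synthase genes mt-Atp6 and mt-Atp8 were at -0.08 and -0.09. No test compared these genes with each other.

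Near-identical nuclear pseudogenes of several mitochondrial genes also carried counts. A pseudogene was counted as near-identical at 95% identity over at least 50% of the length, and 60 such pseudogenes were found for 35 members. Copies of mt-Nd3, mt-Nd4l, mt-Co2, mt-Co3 and mt-Atp6 held about as many counts as the genes themselves, between 99.9% and 103% in each library. Whether reads were divided between gene and copy or counted at both was not tested, so a sum of the 2 may hold some reads more than once. For mt-Nd4 the copy held 41.9% to 48.0% of the gene's counts and for mt-Co1 19.6% to 23.4%. With the copies added, the mitochondrial share was 1.11% ± 0.094 under normal and 0.907% ± 0.089 under high glucose (SD, n = 3 each, exact permutation P = 0.1). The test then called 13 nuclear and 4 mitochondrial members lower, and 2758 of all 18987 tested genes.

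The order of levels within normal glucose depended on whether copies were added. By gene counts alone mt-Co1 stood highest at 1612 ± 183 CPM per kilobase (SD, n = 3), followed by mt-Co3 at 979 ± 73.1, mt-Co2 at 856 ± 135 and mt-Atp6 at 802 ± 62.2. The last 3 lay within or near each other's spread. With copies added, mt-Co3 (1961) and mt-Co1 (1956) were level, and mt-Co2 (1718) and mt-Atp6 (1624) came close to them. The most abundant nuclear genes were Atp5b at 401 ± 23.7 and Cox4i1 at 369 ± 29.0 CPM per kilobase, while Cox4i2 stood at 14.8 ± 2.3 and Cox7a1 at 7.10 ± 0.95.

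**Figure D4:**
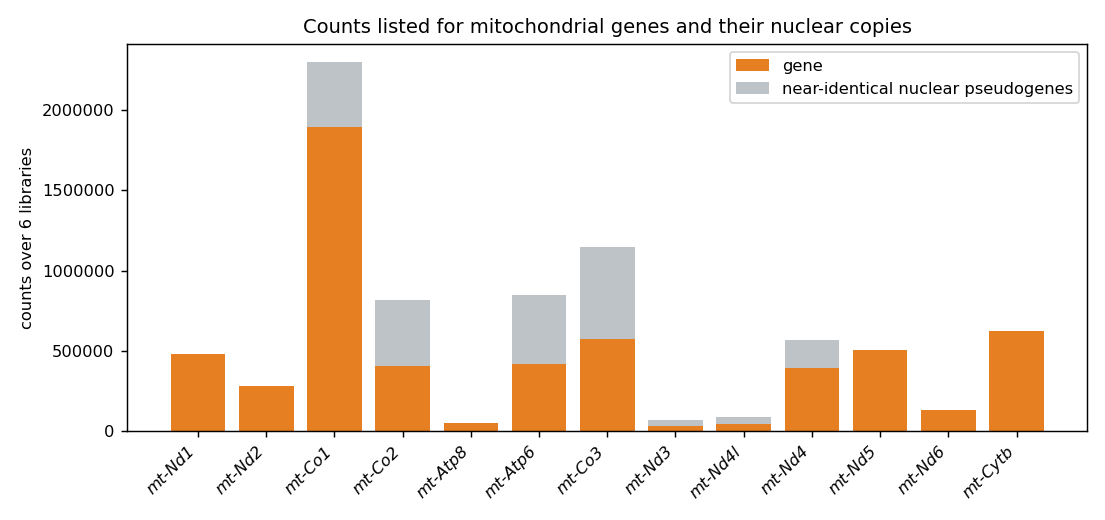
Counts summed over the 6 libraries (axis from 0) for each mitochondrially encoded gene, with the counts of its near-identical nuclear pseudogenes stacked above in grey. For mt-Co2, mt-Atp6, mt-Co3, mt-Nd3 and mt-Nd4l the grey part is as tall as the gene's own bar.

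Genes that build, serve or regulate the chain were counted by list, and their counts stand against 16.9% higher and 14.5% lower over all tested genes. Of 17 complex I assembly factors 2 rose, namely Acad9 (log2 fold change 0.31, adjusted P = 0.00109, edgeR) and Ecsit (0.24), and none fell, also none at an unadjusted P value under 0.05 or with DESeq2. Acad9, an acyl-CoA dehydrogenase that also assembles complex I, had 36.4, 38.9 and 38.9 CPM against 47.5, 46.8 and 47.4 CPM, without overlap. Of 4 complex II factors Sdhaf4 fell (-0.34), of 22 complex IV factors Tmem177 rose (0.36) and Coa6 fell (-0.30), and none of 6 complex III or 4 complex V factors passed. At an unadjusted P value under 0.05, 1 complex III factor was higher, and DESeq2 called none in either list.

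Of 14 tested genes of mobile electron carriers, Coq8a, which serves ubiquinone synthesis, rose (0.38) and Cycs, cytochrome c, fell (-0.24, adjusted P = 0.0472). Ndufab1, the acyl carrier subunit of complex I that the symbol rule leaves out, fell (-0.19, adjusted P = 0.0292).

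Of 17 genes that transcribe and replicate mitochondrial DNA, Polg, the DNA polymerase, rose (0.27) and Mterf2 fell (-0.26). Tfam, which packages mitochondrial DNA and starts its transcription, had 23.5, 22.7 and 21.5 CPM against 21.5, 23.8 and 21.5 CPM, overlapping groups that differed by -0.02 (log2, adjusted P = 0.837). Polrmt, the RNA polymerase, was at 0.08 (adjusted P = 0.389). Of 17 RNA processing genes Fastkd1 rose (0.45) and Hsd17b10, a subunit of mitochondrial RNase P, fell (-0.31). With the length and GC trend removed, Sdhaf4, Coa6, Cycs, Mterf2 and Polg no longer passed, at -0.11, -0.09, -0.15, -0.09 and 0.07. Other genes were gained as higher under that setting. The complex I factors then had 5 higher and 0 lower, the complex III factors 1 and 0, the complex IV factors 3 and 0, and the mitochondrial DNA genes 3 and 1. Of all 19015 tested genes, 3816 were then called higher and 3065 lower.

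Among 12 tested nuclear regulators of respiratory genes 5 rose and 1 fell, where 16.9% of all tested genes were higher and 14.5% lower. Nrip1, known as a corepressor of oxidative genes, had 40.6, 47.4 and 42.9 CPM against 71.5, 75.0 and 69.7 CPM, and its log2 change was 0.72 ± 0.07 (SE, adjusted P = 1.82e-05, edgeR). Ppargc1a, the coactivator PGC-1α, was very low, at 0.607, 0.966 and 0.648 CPM against 1.27, 1.03 and 1.37 CPM, and its log2 change was also 0.72 (adjusted P = 0.0180). Both genes had no overlap between groups. Perm1, a muscle partner of that pathway, fell (-0.62). Hcfc1, Gabpb2 and Pprc1 rose by 0.53, 0.36 and 0.21 on the log2 scale; these 3 are named after their values were seen. Nrf1 and Gabpa, whose sites were searched in the promoters, were at 0.05 and 0.01, and Ppargc1b at 0.16, and none of the 3 passed.

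**Figure D5:**
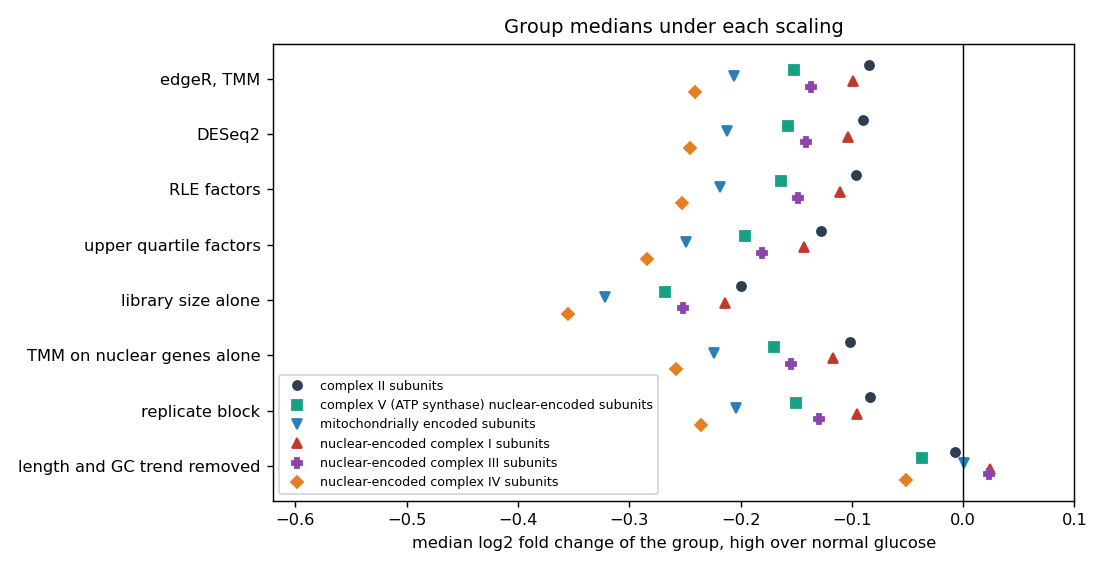
Median log2 fold change of each group of subunits under the main fit (edgeR with TMM) and 7 alternatives. Medians are below 0 under every setting but the trend removal, and lowest with library size alone. With each library's length and GC trend removed they lie near 0. Those of nuclear complex I, nuclear complex III and the mitochondrial genes are then slightly above 0.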

How the data were processed

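RNA from 3 normal glucose and 3 high glucose cultures was sequenced. The labels name TRIzol and DNBSeq, the study's methods a QIAGEN kit and an Illumina HiSeq. For the deposited file the authors used Trimmomatic for trimming, HISAT2 for alignment (GRCm38) and StringTie for counting, and the deposited values are whole-number counts per gene without normalization. Versions, annotation release and strand setting are not given in the sources used here, so antisense and overlapping genes are uncertain. The counts may hold both reads of a pair, so floors cover counting error only.

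Tests were run with edgeR 4.0.16 under R 4.3.3, on genes kept by filterByExpr at a minimum count of 10 and a total of 15, with TMM factors (1.03 to 1.05 in normal, 0.954 to 0.966 in high glucose), quasi-likelihood test and Benjamini-Hochberg adjustment over 19015 genes, called under 0.05. CPM are counts scaled to the same total with TMM factors. The biological coefficient of variation was 8.44%. Replicates differed by at least 9.76 chi-square per degree of freedom. Positions and median principal transcript lengths came from GENCODE for GRCm38, and symbols were matched for 55141 identifiers. Alternatives were the likelihood ratio test, DESeq2 1.42.0, other scalings and filters, removal of each library's length and GC trend (mgcv 1.9.3), the replicate block, added pseudogene counts, halved counts and each sample left out. The members and lists were chosen with earlier results of these data known. Named genes are all mitochondrial and complex II members, the 4 largest called rises and falls and the most abundant nuclear gene of each other complex, isoform pairs, untested members, and up to 3 called genes per list with 9 fixed regulators and carriers. The values of 1 member that this rule names are not reported here.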

Additional observations from a re-analysis of the deposited data

How the results depend on the processing

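Numbers of calls and group medians depended on scaling and on the length trend. Nuclear members called lower numbered 12, but 23 with DESeq2, 24 with upper quartile factors, 52 with library size alone, 19 with halved counts, 7 with the length and GC trend removed and 5 with that and the replicate block, and 7 to 43 when single samples were left out (7 without high glucose replicate 1, 43 without normal glucose replicate 2). Nuclear members called higher numbered 0, but 7 with the trend removed and 6 with the block added. Mitochondrial members called lower numbered 4, but 7 with library size alone, 2 without a filter, 0 with the trend removed, with or without the block, and 1 to 5 with single samples left out. Mitochondrial members called higher were 2 with the trend removed and 3 with the block added. Over all tested genes, 2757 of 19015 were called lower, but 2783 of 18825 with DESeq2. Upper quartile factors gave 3407 and library size alone 4884. With halved counts 3047 of 17267 were lower, and without a filter 2488 of 31922. With the trend removed 3065 were lower and 3816 higher, and with the block added 2742 and 3355, in place of 3212 higher. Without high glucose replicate 1, 2097 of 19367 were lower, and without normal glucose replicate 2, 3065 of 19258.

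With library size alone the median log2 fold changes were -0.21 for nuclear complex I, -0.20 for complex II, -0.25 for complex III, -0.36 for complex IV and -0.27 for complex V, while the median of all genes moved to -0.11. With the trend removed the medians were 0.0243, -0.0071, 0.0232, -0.0513 and -0.0372 in the same order and 0.001 for the mitochondrial genes. With trend and block they were 0.0247, -0.0068, 0.024, -0.0507 and -0.0373, and 0.0108 for the mitochondrial genes. With the trend removed, mt-Atp6 (0.20) and mt-Atp8 (0.17) were called higher, and with the block added mt-Atp6 (0.21), mt-Atp8 (0.17) and mt-Cytb (0.19). The cause of these differences was not tested. With single samples left out the medians ranged from -0.17 to -0.05 for complex I, -0.12 to -0.06 for complex II, -0.21 to -0.07 for complex III, -0.30 to -0.20 for complex IV, -0.21 to -0.09 for complex V and -0.31 to -0.12 for the mitochondrial genes, and the difference in mitochondrial share from -0.187 to -0.109 percentage points.

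Same-numbered samples deviated together only weakly, at correlations of 0.0284, 0.0749 and 0.110, yet each of the 6 samples correlated best with its own number. Whether the numbers pair the samples is not given in the sources used here. The main fit had no block, and the block was run as an alternative. With the replicate block the call of mt-Co2 (adjusted P = 0.0554) was lost and mt-Nd4 (0.0342) and mt-Nd5 (0.0338) passed; of the pathway genes, Sdhaf4, Cycs and Mterf2 no longer did. Cox4i2, Cox7a1, Cox6b2 and Cox7a2l remained called lower in all 18 alternatives to the test.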

Other observations

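The mitochondrial ribosomal RNAs, which are not among the subunits, were called lower in high glucose in the main fit. Their values with the length and GC trend removed are not given here. mt-Rnr1 had 104, 86.0 and 73.8 CPM (TMM-normalised) against 51.0, 72.3 and 55.5 CPM, which is -0.56 in log2 terms (adjusted P = 0.0122, edgeR). mt-Rnr2 had 444, 376 and 309 CPM against 218, 305 and 234 CPM, or -0.58 (adjusted P = 0.0109, edgeR). Neither gene had overlapping groups, but high glucose replicate 2 lay just under normal glucose replicate 3. Normal glucose replicate 1 was highest and, within high glucose, replicate 2 was highest, as for mt-Co2 and mt-Nd6. Mitochondrial tRNAs took 0.00452% ± 0.00114 of counts under normal and 0.00315% ± 0.000444 under high glucose (SD, n = 3 each, exact permutation P = 0.2). The libraries were made from polyadenylated RNA, and how completely these RNAs were captured was not tested.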
